A study of Mus musculus with 144 samples.

Results

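The 10 genes described here bring fatty acids into the hepatocyte, build triglyceride, coat the lipid droplet and break its triglyceride down again. They were chosen by name: Cd36, Fabp1, Plin2, Plin4, Plin5, Cideb, Cidec, Pnpla2, Dgat1 and Dgat2, 10 of the 55359 genes counted, and each was read in every RNA-seq library of a time course in primary mouse hepatocytes. The cells came from male C57BL/6NCrl mice labelled WT and from male mice labelled PkmΔDRE, both 28 days old, and were plated in Williams' E medium with dexamethasone, ascorbic acid and insulin-transferrin-selenium. PkmΔDRE mice are homozygous for a CRISPR deletion of 5 bases in a dioxin response element (DRE) in an intron of Pkm, the pyruvate kinase gene, backcrossed for 8 generations. After 3 h of attachment each culture received 10 nM TCDD (2,3,7,8-tetrachlorodibenzo-p-dioxin, a ligand of the aryl hydrocarbon receptor, AHR) or the DMSO vehicle. RNA was taken after 2, 4, 8 or 12 h on the first day and after 24, 48, 72, 96 or 120 h, with 4 libraries in each of the 36 groups. The cells are plated hepatocytes away from the liver, and the labels name neither the animal nor the isolation behind a library, so p-values measure only the spread between these libraries, which may be technical.

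Cells take up long-chain fatty acids partly through CD36, a membrane glycoprotein, and FABP1, the most abundant fatty acid binding protein of hepatocytes, carries them in the cytosol. DGAT1 and DGAT2 catalyse the last step of triglyceride synthesis, perilipins (PLIN2, PLIN4 and PLIN5) and CIDE proteins (CIDEB and CIDEC) sit on lipid droplets, and PNPLA2, also named ATGL, starts lipolysis. TCDD raises hepatic lipid in mice through AHR, which binds DREs with the core GCGTG, while Fabp1, Cd36 and several perilipin genes are known targets of nuclear receptors such as PPARα, whose sites hold copies of AGGTCA.

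The sequences of the 250 bases before the transcription start of Cd36, Fabp1 and Plin2 are shown because the late differences under TCDD concern Cd36 and Fabp1, while Plin2 holds both motifs. They are RefSeq windows on GRCm38.p6, an earlier build than the GRCm39 of the counts, written 5′ to 3′ on the strand of the gene, with capitals for AGGTCA or GCGTG on either strand. The Cd36 window lies at chr5:17835897-17836146 on the minus strand, the Fabp1 window at chr6:71199629-71199878 on the plus strand, and the Plin2 window at chr4:86670060-86670309 on the minus strand.
Cd36: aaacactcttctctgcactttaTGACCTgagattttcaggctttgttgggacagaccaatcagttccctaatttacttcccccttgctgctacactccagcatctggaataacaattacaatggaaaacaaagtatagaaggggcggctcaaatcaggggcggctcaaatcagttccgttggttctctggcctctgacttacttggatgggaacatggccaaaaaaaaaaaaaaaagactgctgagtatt
Fabp1: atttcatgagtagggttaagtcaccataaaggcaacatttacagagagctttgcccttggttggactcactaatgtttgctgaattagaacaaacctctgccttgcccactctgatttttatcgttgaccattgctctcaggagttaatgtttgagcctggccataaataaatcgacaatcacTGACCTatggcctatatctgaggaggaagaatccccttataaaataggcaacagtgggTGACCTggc
Plin2: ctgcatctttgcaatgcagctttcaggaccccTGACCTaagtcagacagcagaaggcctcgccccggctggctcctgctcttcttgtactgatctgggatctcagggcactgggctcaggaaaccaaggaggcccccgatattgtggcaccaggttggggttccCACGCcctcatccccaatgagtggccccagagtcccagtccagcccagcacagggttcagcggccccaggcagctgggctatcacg
Cd36 had 1 match of AGGTCA, beginning 228 bases before the start, and no GCGTG. Fabp1 had 2 matches of AGGTCA, beginning 67 and 9 bases before the start, and no GCGTG. Plin2 had AGGTCA 218 bases and GCGTG 86 bases before the start. Windows were matched for 8 of the 10 genes, 10 windows in all, and GCGTG was also found in both Plin5 windows and in 1 of the 2 Cidec windows. Like Plin2, the first Plin5 window held both motifs, with AGGTCA 170 bases and GCGTG 54 bases before the start. GCGTG occurred in 28.2% and AGGTCA in 14% of the 32851 windows of the same length, and the 2 motifs share no overlap at any of these matches. A match describes the letters of the window and not a bound site.

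Libraries held between 13588848 and 30719161 read pairs assigned to genes, with a median of 18011825. Levels are CPM, gene counts scaled to the size of the library by TMM over all libraries. Cyp1a1, the AHR target used as a check of treatment, had a median of 3.23 CPM in WT vehicle and 3460 CPM in WT TCDD libraries, and 3.47 and 4260 CPM in PkmΔDRE libraries. It went against the label in replicate 1 of WT vehicle at 48 h (3290 CPM), replicate 3 of WT vehicle at 96 h (1720 CPM), replicate 4 of WT TCDD at 2 h (1.15 CPM) and replicate 4 of WT TCDD at 72 h (29.2 CPM). In PkmΔDRE vehicle it reached up to 244 CPM. This highest value was at 96 h, where the 3 libraries other than replicate 4 held 5.08 to 244 CPM (mean 147.7 CPM). Pkm counts cannot show the intronic deletion and do not separate the splice forms of the gene. Their medians over the 9 hours under TCDD were 100.4 CPM in libraries labelled WT, against 136.1 CPM in vehicle, and 294 CPM in libraries labelled PkmΔDRE, against 196 CPM in vehicle. The mean under TCDD was above that of vehicle at 2 of 9 hours with the label WT and at 7 of 9 hours with the label PkmΔDRE (8 without the 3 libraries named next), and the genotypes are given below as labels. By correlation over all genes, 120 libraries lay nearest to their own hour and 21 to a neighbouring hour. The other 3 were all PkmΔDRE vehicle: replicate 1 of 72 h lay nearest to 120 h (r = 0.974, own hour 0.954), replicate 4 of 4 h nearest to 96 h (r = 0.973, own hour 0.766) and replicate 4 of 96 h nearest to 4 h (r = 0.978, own hour 0.763). Values printed below for TCDD and label comparisons at these hours are given with the library that lies nearest to another hour and, where they changed a call or moved by over 1.5 times, without it.

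The levels of Cd36 and Fabp1 in both of these replicate 4 libraries also went against their hour labels. The one labelled 4 h held 114.7 CPM of Cd36 and 0.543 CPM of Fabp1, while the one labelled 96 h held 6.37 CPM of Cd36 and 1140 CPM of Fabp1. Without these 2 libraries the mean of Fabp1 in PkmΔDRE vehicle was 1130 ± 211 CPM (SD, n = 3) at 4 h and 0.863 ± 0.0614 CPM (SD, n = 3) at 96 h, against 847 and 286 CPM with them.

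**Figure D1:**
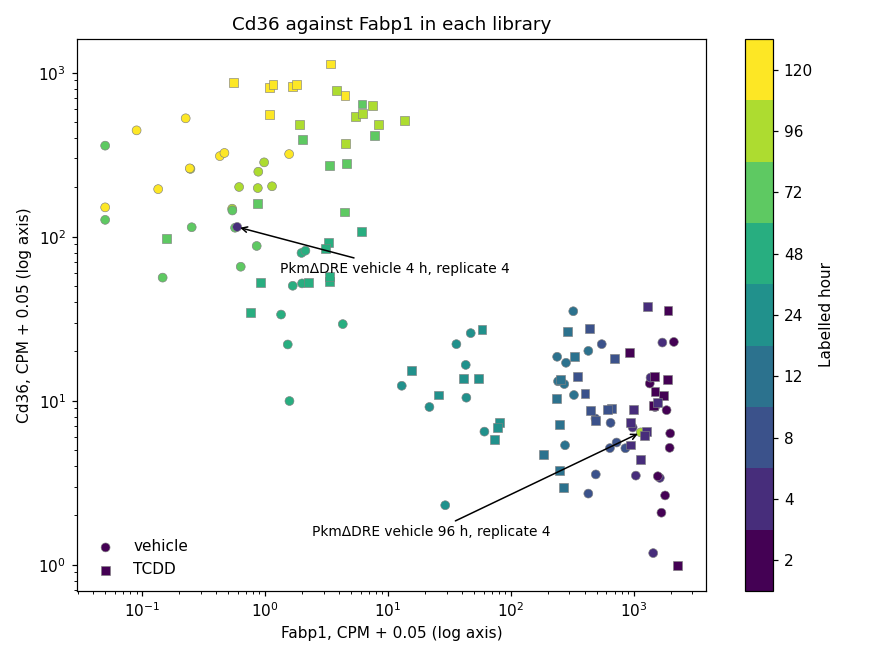
Cd36 (vertical) against Fabp1 (horizontal) in each library, both as CPM + 0.05 on log axes, with colour for the labelled hour, circles for vehicle and squares for TCDD. Libraries run from high Fabp1 and low Cd36 at 2 h to low Fabp1 and high Cd36 at 120 h, and the replicate 4 libraries of PkmΔDRE vehicle at 4 and 96 h sit at the opposite end from their labelled hours.

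Levels of different genes were compared as CPM per kilobase of exon. In WT vehicle at 2 h, Fabp1 was first at 3490 CPM per kb (range 3260 to 3830), followed by Plin2 at 430 CPM per kb (352 to 490) and Dgat2 at 210 CPM per kb (183 to 243). Cidec (80.8 CPM per kb, 61.7 to 107.8) and Pnpla2 (70.9 CPM per kb, 54.7 to 89.7) overlapped, and so did Cideb (11.4 CPM per kb, 8.8 to 14) and Dgat1 (9.95 CPM per kb, 7.96 to 12.1). Plin5 stood between these pairs at 19.1 CPM per kb, and Cd36 (2.73 CPM per kb, 0.724 to 6.35) and Plin4 (0.926 CPM per kb, 0.595 to 1.33) came last with overlapping ranges. By 120 h the order had changed. Plin2 was then first at 336 CPM per kb (226 to 494), Cd36 second at 79.9 CPM per kb (54.3 to 90.4) and Pnpla2 next at 45 CPM per kb (38.8 to 52.1). Dgat2, at 31.3 CPM per kb (26.2 to 38.8), lay just at the lowest Pnpla2 library, and Dgat1 followed at 8.74 CPM per kb. Cidec (2.83 CPM per kb), Plin4 (1.77 CPM per kb), Cideb (1.71 CPM per kb), Plin5 (1.6 CPM per kb) and Fabp1 (1.08 CPM per kb, 0.154 to 2.74) formed the end of the order, where each overlapped its neighbour. Fabp1 had thus moved from the highest to the lowest of the 10 genes, and Cd36 from the ninth place to the second. The place of Cideb is uncertain and likely too low at both hours. Of its exon bases 76.34% overlap Nop9, and pairs that overlap both genes were not counted for it.

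**Figure D2:**
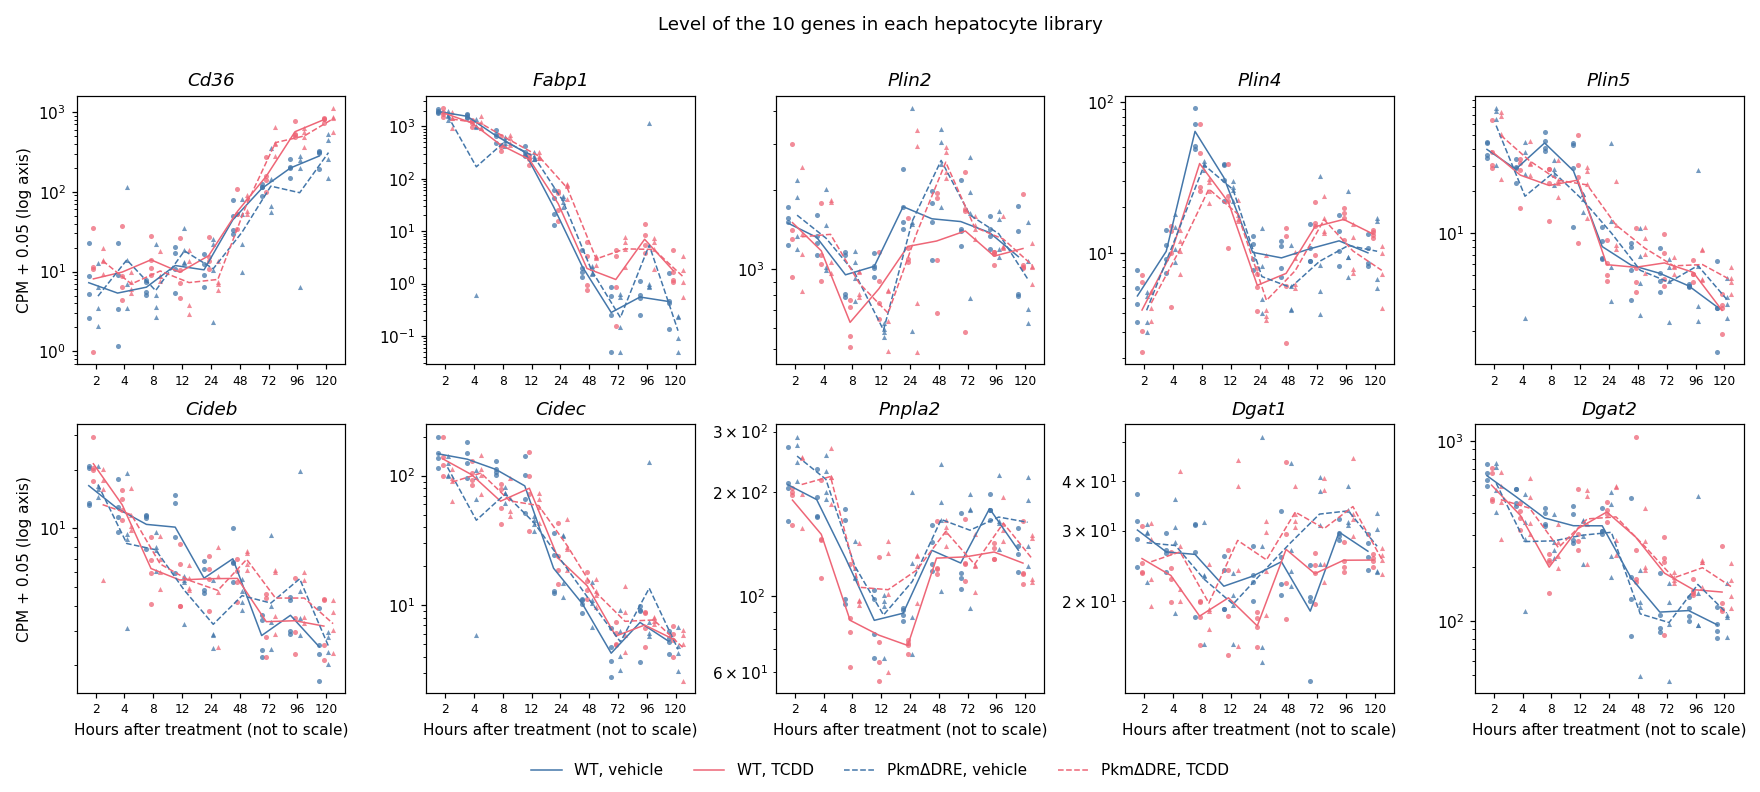
Level of each of the 10 genes in every library, as CPM + 0.05 on a log axis, against hours after treatment (hours evenly spaced, not to scale); 1 point is 1 library and lines join the means on the log scale of 4 libraries. Fabp1, Plin5, Cideb, Cidec and Dgat2 run downward, Cd36 runs upward after 24 h, and Plin4 peaks at 8 h in all 4 series.

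The change with time in culture was tested in vehicle libraries, between 2, 24 and 120 h, in 1 edgeR fit per genotype label. A gene was called when its Benjamini-Hochberg adjusted p over all genes tested was under 0.05 and its fold change at least 1.5 (0.58 on the log2 scale). In WT libraries 7 of the 10 genes were called between 2 and 24 h (1 higher and 6 lower), against 45.8% of all genes tested, 7 between 24 and 120 h (1 higher and 6 lower), against 35.6%, and 8 between 2 and 120 h (2 higher and 6 lower), against 57.9%. In PkmΔDRE libraries the counts were 5 (0 higher and 5 lower), against 33.2% of all genes, 5 (1 higher and 4 lower), against 23.4%, and 8 (2 higher and 6 lower), against 49.4%. Over 120 h the median log2 change of the 10 genes was −1.86 in WT and −1.77 in PkmΔDRE libraries, beside medians of 0.21 and 0.24 over all genes tested. The summed level of 6 hepatocyte markers went from 115000 to 155000 CPM at 2 h to 3100 to 17000 CPM at 120 h in WT vehicle libraries, with none of the 6 at 0 in any library. Alb made up most of this sum, with means over the vehicle libraries of both labels of 134000 CPM at 2 h and 6490 CPM at 120 h. Of the 6, only Apob did not fall (682 and 690 CPM). The part of these markers in the changes was not tested, and in whole cultures fewer hepatocytes cannot be told apart from less RNA of a gene per hepatocyte. The summed levels of 6 macrophage markers and 6 endothelial markers were also lower at 120 h (13.6 to 56.8 and 36 to 89.1 CPM) than at 2 h (162 to 260 and 295 to 475 CPM). Those of 5 cholangiocyte markers were higher (581 to 1070 against 55.7 to 140.8 CPM), and those of 6 stellate or fibroblast markers were 18.3 to 153 against 17.8 to 24.6 CPM. In means over vehicle libraries of both labels, Spp1 went from 10.9 CPM at 2 h to 732 CPM at 120 h. Krt19 (0.788 to 41.5), Krt7 (0.107 to 18) and Sox9 (82.8 to 111.3) also rose, while Epcam fell (3.01 to 1). Reln (12.5 to 4.56) and Dcn (7.76 to 6.77) fell. Col1a1 (0.247 to 39.6), Col3a1 (0.605 to 30.9), Des (0.188 to 1.79) and Lrat (0.112 to 0.567) rose. Adipocyte markers were nearly absent: Adipoq was at 0 in 106, Cfd in 81 and Plin1 in 52 libraries, Lep was above 0 in 8 libraries, and none exceeded 1.82 CPM.

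The uptake genes moved in opposite directions, and Fabp1 fell by more than any other of the 10 genes. Fabp1 (ENSMUSG00000054422) measured 1800, 1960, 2120 and 1850 CPM in the 4 WT vehicle libraries at 2 h, 12.9, 21.7, 42.9 and 60.9 CPM at 24 h, and 0.379, 0.085, 1.52 and 0.417 CPM at 120 h. The hours did not overlap. The log2 difference was −5.92 (SE 0.54, adjusted p = 8.94e-11) between 2 and 24 h and −11.81 (SE 0.7, adjusted p = 2.37e-15) between 2 and 120 h by edgeR's quasi-likelihood test. In PkmΔDRE libraries Fabp1 was at 1570, 1350, 1680 and 1980 CPM at 2 h and at 0.194, 0.176, 0.0401 and 0 CPM at 120 h, a log2 difference of −14.06 (SE 2.23, adjusted p = 1.34e-05) that rests on 10 counts in all at 120 h. The means of WT vehicle libraries over the 9 hours were 1930, 1570, 679, 327, 34.6, 2.28, 0.382, 0.584 and 0.6 CPM, so nearly all of the fall had taken place by 72 h.

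Cd36 (ENSMUSG00000002944) measured 2.6, 5.12, 22.8 and 8.72 CPM at 2 h, 12.3, 9.12, 16.5 and 6.44 CPM at 24 h, and 310, 195, 319 and 324 CPM at 120 h in WT vehicle libraries. The first 2 of these hours overlapped and differed by 0.09 on the log2 scale, and all 4 libraries at 120 h lay above both. Between 24 and 120 h Cd36 rose by 4.64 on the log2 scale (SE 0.58, adjusted p = 1.64e-07). PkmΔDRE vehicle libraries held 3.42, 12.7, 2.03 and 6.28 CPM at 2 h and 261, 527, 445 and 151 CPM at 120 h, a log2 difference of 5.67 (SE 1.11, adjusted p = 0.000153). Mean levels in WT passed through 48.1, 110.5 and 203 CPM (48, 72 and 96 h) before they reached 287 ± 61.8 CPM (SD, n = 4).

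Of the droplet coat proteins, Plin5 (ENSMUSG00000011305), which tethers droplets to mitochondria in oxidative cells, fell, while Plin2 (ENSMUSG00000028494), the perilipin of most hepatocyte droplets, remained among the most abundant of the 10 genes. Plin5 was at 36, 44.9, 34.7 and 44.1 CPM at 2 h and at 2.86, 6.25, 1.37 and 2.88 CPM at 120 h in WT vehicle libraries, a log2 difference of −3.76 (SE 0.38, adjusted p = 4.45e-10). It fell by 4.4 on the log2 scale in PkmΔDRE libraries, from a mean of 62.4 to 3.41 CPM. Plin2 was at 1510, 1240, 1720 and 1570 CPM at 2 h, 1430, 1510, 1730 and 2400 CPM at 24 h and 810, 1740, 1400 and 793 CPM at 120 h in WT, and these ranges overlapped. Between 24 and 120 h the Plin2 difference was −0.63 (SE 0.23, adjusted p = 0.0302), a call that was kept in 1 of 7 other settings and in 5 of 8 fits with a library left out. Between 2 and 120 h it was −0.52 (adjusted p = 0.0534) in WT and −0.95 in PkmΔDRE libraries, with an adjusted p = 0.0518, and was called without the replicate 4 libraries of 4 and 96 h (adjusted p = 0.0494).

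Plin4 (ENSMUSG00000002831), a perilipin best known from adipocytes and muscle, had a course of its own. WT vehicle libraries held 3.44, 7.68, 5.78 and 4.52 CPM at 2 h, 91.5, 72, 51.4 and 49.1 CPM at 8 h, and 11.4, 7.63, 12.9 and 9 CPM at 24 h. PkmΔDRE vehicle libraries held 37.9, 35.2, 39 and 40.6 CPM at 8 h against 5.48, 2.95, 3.44 and 5.11 CPM at 2 h. The 8 h libraries of both labels lay above every vehicle library of 2, 24 and 120 h, a description for which no test was run. Of the tested hours, Plin4 was higher by 0.81 on the log2 scale at 24 than at 2 h in WT (SE 0.29, adjusted p = 0.0193). At 120 h it was higher than at 2 h by 0.75 in WT (SE 0.29, adjusted p = 0.0231) and by 1.23 in PkmΔDRE libraries (adjusted p = 0.0498). With a library left out, each WT call was kept in 5 of 8 fits and the PkmΔDRE call in 2 of 8. Plin2 went the other way at the early hours, with WT libraries at 788, 804, 1130 and 1160 CPM at 8 h, all below the 2 h libraries. Over the 36 group means the correlation of Plin2 and Plin4 was −0.66, a description over groups that share their cultures' time course.

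The CIDE genes, whose products promote droplet fusion and, for Cideb, lipidation of very low density lipoproteins, fell together. Cidec (ENSMUSG00000030278) was at 114.6, 200, 136.8 and 150 CPM at 2 h, 12.3, 12.8, 24.2 and 35.8 CPM at 24 h and 4.14, 5.48, 5.14 and 6.28 CPM at 120 h in WT vehicle libraries. The log2 difference between 2 and 120 h was −5.01 (SE 0.38, adjusted p = 5.64e-13) in WT and −4.85 in PkmΔDRE libraries, with no overlap between these hours in either. Cideb (ENSMUSG00000022219) was at 13.1, 13.4, 20.8 and 20.2 CPM at 2 h and 1.62, 3.87, 2.48 and 2.24 CPM at 120 h in WT, a log2 difference of −2.89 (SE 0.31, adjusted p = 1.13e-09), and it fell by 2.96 on the log2 scale in PkmΔDRE libraries. Of the 1488 exon bases of Cideb, 1136 (76.34%) overlap Nop9 on the opposite strand, and the counts do not use strand. Read pairs that overlap both genes are assigned to neither, so the level of Cideb is uncertain and is likely too low. Nop9 did not run with Cideb: it was higher at 24 than at 2 h by 0.92 in WT and by 1.18 in PkmΔDRE libraries on the log2 scale, when Cideb was lower by 1.71 and 2.44.

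Pnpla2 (ENSMUSG00000025509), the lipase that removes the first fatty acid from triglyceride, fell early and returned in part. It was at 165, 271, 206 and 212 CPM at 2 h, 92.1, 88.1, 84.6 and 91.2 CPM at 24 h and 117.1, 132.02, 139.4 and 157 CPM at 120 h in WT vehicle libraries. All 24 h libraries lay below all 2 h libraries, with a log2 difference of −1.39 (SE 0.2, adjusted p = 7.31e-07), and all 120 h libraries lay above the 24 h ones, with a log2 difference of 0.57 (adjusted p = 0.0216) that stayed under the fold threshold. In PkmΔDRE libraries the 24 h difference was −1.25 and the 120 h difference from 2 h −0.8 (adjusted p = 0.0193), which became −0.17 once the share of pairs outside genes entered the fit.

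The pair of DGAT enzymes divided. Dgat2 (ENSMUSG00000030747), which makes triglyceride mostly from newly synthesized fatty acids, was at 564, 668, 748 and 606 CPM at 2 h, 306, 318, 318 and 426 CPM at 24 h and 80.8, 120, 96.6 and 88.3 CPM at 120 h in WT vehicle libraries. These 3 hours did not overlap. The difference between 2 and 120 h was −2.91 on the log2 scale (SE 0.33, adjusted p = 3.86e-09) in WT and −2.6 in PkmΔDRE libraries. Dgat1 (ENSMUSG00000022555), which also esterifies fatty acids taken up from outside, was at 24.3, 37, 28.6 and 31.7 CPM at 2 h and at 25.7, 29.3, 23.8 and 27.9 CPM at 120 h, a log2 difference of −0.36 (adjusted p = 0.105). Its group means over all 36 groups stayed within 17.3 and 34.9 CPM, and the edgeR fits called it in none of the 6 culture comparisons. Between 2 and 24 h in WT its difference of −0.52 (adjusted p = 0.0269) lay just under the fold threshold, and DESeq2 called it (−0.65, adjusted p = 0.00336).

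**Figure D3:**
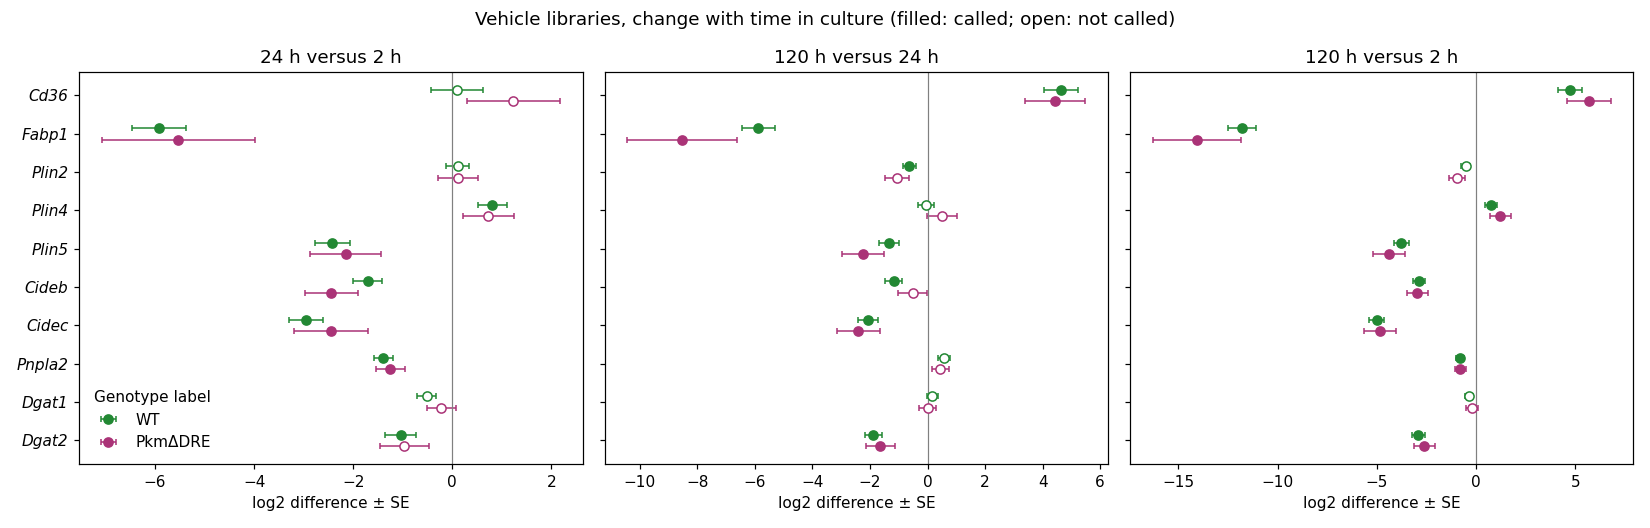
log2 difference (horizontal, with its SE) of each of the 10 genes in vehicle libraries between 24 and 2 h, 120 and 24 h, and 120 and 2 h, green for libraries labelled WT and purple for PkmΔDRE, with filled points for called genes. Cd36 lies near 0 in WT at 24 h and beyond 4 at 120 h, Fabp1 falls in each panel, and Dgat1 is open in each panel.

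TCDD was compared with the vehicle libraries of the same hour and label, 8 libraries to a fit and 18 fits. The vehicle libraries are also those of the culture and label comparisons. Over the 9 hours, 10 of 90 tests of the 10 genes were called in WT libraries (4 higher and 6 lower) and 1 of 90 in PkmΔDRE libraries (higher), against 5.98% and 0.281% of the tests of all genes. Of the WT calls 7 fell at 8 h, 2 at 96 h and 1 at 120 h, and the PkmΔDRE call at 72 h.

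**Figure D4:**
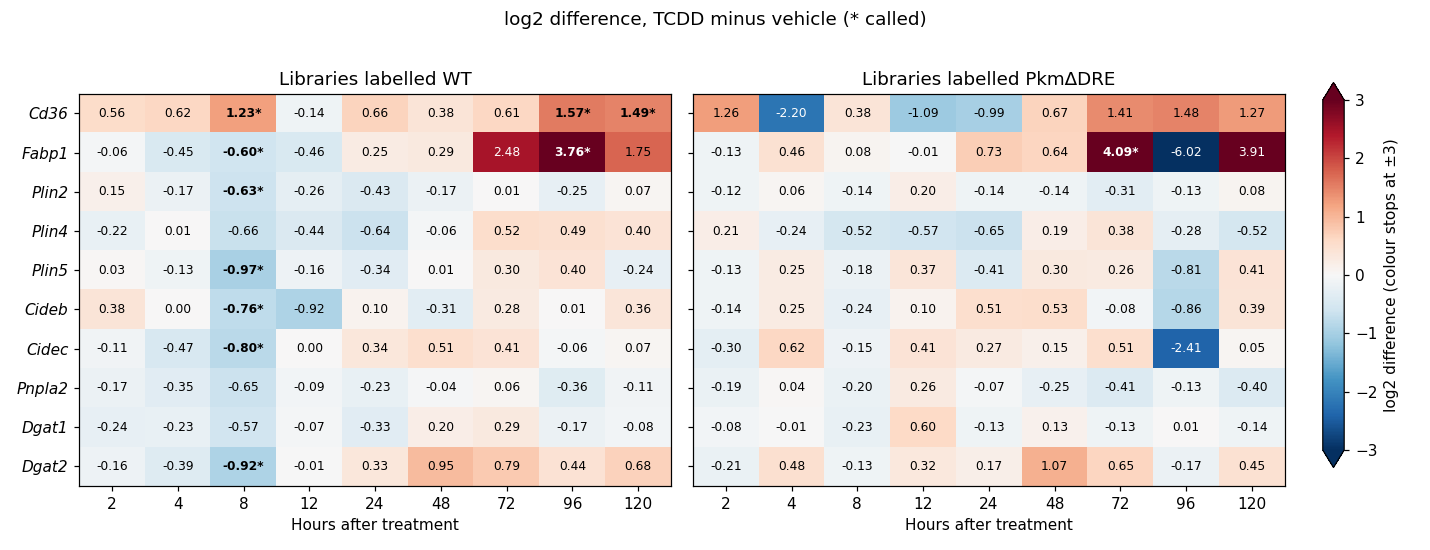
log2 difference of TCDD from vehicle for each of the 10 genes (rows) at each hour (columns), for libraries labelled WT and PkmΔDRE, printed in each cell and coloured from blue (lower) to red (higher) with the colour ending at 3; an asterisk marks called genes. Cd36 and Fabp1 hold the late calls, and the blue cells of PkmΔDRE at 4 h for Cd36 and at 96 h for Fabp1 and Cidec rest on the replicate 4 vehicle libraries of those hours.

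At 96 h both uptake genes were higher under TCDD in libraries labelled WT, 2 of the 10 genes against 15.1% of all genes tested. Cd36 was at 259, 148, 203 and 201 CPM in vehicle and at 779, 538, 485 and 510 CPM in TCDD libraries, without overlap. The means were 203 ± 45.3 and 578 ± 135.6 CPM (SD, n = 4 each), a log2 difference of 1.57 (SE 0.19, adjusted p = 0.000603 by edgeR). It was called in all 8 fits with a library left out, with differences of 1.37 to 1.72, and had 1.57 without vehicle replicate 3, whose Cyp1a1 goes against its vehicle label. The call was lost when all 72 WT libraries shared 1 estimate of the spread (1.53, adjusted p = 0.218) and when a surrogate variable was added to that fit (0.89, adjusted p = 0.742). Read pairs in no annotated feature made up 9.08% to 11.8% of these TCDD libraries and 6.21% to 9.4% of the vehicle libraries. With this share in the fit, 2 of the 10 genes were again called. TCDD replicate 1 (779 CPM) lay nearest to 120 h (r = 0.982, own hour 0.976).

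Fabp1 at 96 h was at 0.197, 0.49, 1.09 and 0.565 CPM in WT vehicle and at 3.77, 5.44, 8.33 and 13.7 CPM in WT TCDD libraries, which did not overlap. These rest on 53 and 650 counts. The log2 difference was 3.76 (SE 0.5, adjusted p = 0.000745), it was called in all 8 fits with a library left out (3.32 to 4.24) and in all 8 other settings (3.32 to 3.94). All 8 libraries lay far below the 1800 CPM or more of WT vehicle at 2 h, so the higher level under TCDD is a small part of the level that had been lost in culture. Of the other 8 genes, Dgat2 was higher by 0.44 (100.2 to 135.7 CPM in vehicle, 139.6 to 171 CPM in TCDD libraries, adjusted p = 0.00751) and Pnpla2 lower by 0.36 (166 to 197 against 128.2 to 142.1 CPM, adjusted p = 0.00776), without overlap in either gene and both under the fold threshold. Plin2 had a log2 difference of −0.25, Plin4 of 0.49 and Plin5 of 0.4, and the median over the 10 genes was 0.21 beside 0.01 over all genes. Stellate or fibroblast markers summed to 87.9 to 264 CPM under TCDD against 51.3 to 141.8 CPM in vehicle, endothelial markers to 44 to 62.5 against 71.5 to 81.2 CPM, cholangiocyte markers to 372 to 781 against 609 to 1330 CPM, and hepatocyte markers to 13100 to 15200 against 7180 to 13600 CPM. The part of these cell markers in the differences was not tested. Single genes can weigh heavily in such a sum. In the stellate or fibroblast list, here and below, Reln reached up to 480 CPM in a library, Col1a1 134.5 CPM and Col3a1 92.1 CPM. Lrat, Des and Dcn did not exceed 15.8 CPM.

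At 120 h Cd36 was again higher in WT, the sole gene called of the 10, against 1.46% of all genes tested. Vehicle libraries held 310, 195, 319 and 324 CPM and TCDD libraries 828, 816, 729 and 843 CPM, with means of 287 ± 61.8 and 804 ± 51.4 CPM (SD, n = 4 each) and no overlap. The log2 difference was 1.49 (SE 0.16, adjusted p = 0.002), from 1.35 to 1.55 and called in all 8 fits with a library left out, while the fit of all 72 WT libraries gave 1.51 with an adjusted p = 0.419. Fabp1 was at 0.379, 0.085, 1.52 and 0.417 CPM against 1.63, 1.04, 4.42 and 1.11 CPM, which overlapped, with a log2 difference of 1.75 and adjusted p = 0.282. Stellate or fibroblast markers summed to 149 to 181 CPM under TCDD and 18.3 to 153 CPM in vehicle, endothelial markers to 84.5 to 93.7 and 36 to 89.1 CPM, and cholangiocyte markers to 317 to 532 and 581 to 1070 CPM, and their part was not tested. Cd36 is also expressed by endothelial cells and macrophages. Macrophage markers summed to 14.7 to 56.1 CPM under TCDD and 13.6 to 56.8 CPM in vehicle, and hepatocyte markers to 4150 to 8920 and 3100 to 17000 CPM. Their part was not tested either.

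In libraries labelled PkmΔDRE the late values of both genes were also higher under TCDD, while few calls were made. The exception was Fabp1 at 96 h, which was higher only without vehicle replicate 4 of that hour. At 72 h Fabp1 was at 0, 0.492, 0.584 and 0.0968 CPM in vehicle (23 counts) and at 7.7, 4.57, 6.1 and 1.98 CPM in TCDD libraries (530 counts). The groups did not overlap, and the log2 difference of 4.09 (SE 0.77, adjusted p = 0.0257) was the 1 call of the 10 genes, against 1.13% of all genes tested. It lay between 3.66 and 4.68 with a library left out but was called in 3 of these 8 fits, with adjusted p up to 0.101 when vehicle replicate 2 or 4 or TCDD replicate 1, 2 or 3 was missing. It was kept without vehicle replicate 1, which lay nearest to 120 h (3.66, adjusted p = 0.009), and lost in the fit of all 72 PkmΔDRE libraries (4.08, adjusted p = 0.17). Cd36 at 72 h was at 359, 144.5, 65.6 and 56.3 CPM in vehicle and at 415, 280, 644 and 392 CPM in TCDD libraries. The 359 CPM belong to replicate 1, nearest to 120 h, and overlap the TCDD range. Vehicle replicates 3 and 4 (65.6 and 56.3 CPM) lay nearest to 48 h (r = 0.967 and 0.97, own hour 0.954 and 0.969). The TCDD libraries lay nearest to 72 h, and the part of these hours in the difference was not tested. With replicate 1 the log2 difference was 1.41 (SE 0.52, adjusted p = 0.335). Without replicate 1 alone it was 2.24 (SE 0.38, adjusted p = 0.00906), with Pnpla2 then also called at −0.59 (adjusted p = 0.0322) and 1998 genes called in place of 154. Stellate or fibroblast markers summed to 109.2 to 161 CPM under TCDD against 22.9 to 55.3 CPM in vehicle, and cholangiocyte markers to 407 to 706 against 941 to 1050 CPM, and their part was not tested. Of the stellate or fibroblast list only Reln was called without vehicle replicate 1, at 5.69 on the log2 scale. Col1a1 (0.44), Col3a1 (0.63), Dcn (0.62), Lrat (1.53) and Des (−0.57) were not called.

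At 96 h the PkmΔDRE vehicle libraries held 198, 249, 284 and, in replicate 4, 6.37 CPM of Cd36, against 369, 567, 627 and 482 CPM under TCDD. Fabp1 was at 0.823, 0.831 and 0.933 CPM and, in replicate 4, 1140 CPM, against 4.49, 6.12, 7.45 and 1.87 CPM. None of the 10 genes was called with replicate 4, against 0.0793% of all genes tested by edgeR, with 1 at an unadjusted p under 0.05 and none by DESeq2. The Cd36 difference was 1.48 (adjusted p = 0.699) and that of Fabp1 −6.02 (adjusted p = 0.67). Without replicate 4 both were called, Cd36 at 1.03 (SE 0.21, adjusted p = 0.0307) and Fabp1 at 2.47 (SE 0.46, adjusted p = 0.0176), and 321 of 14286 genes were called in that fit in place of 11. The remaining vehicle libraries lay below all 4 TCDD libraries for both genes. Each of these vehicle libraries lay nearest to 72 h (r = 0.98, 0.98 and 0.982, own hour 0.961, 0.968 and 0.978). TCDD libraries lay nearest to 96 h, or to 120 h for TCDD replicate 4. Cyp1a1 in the remaining vehicle libraries ran from 5.08 to 244 CPM. The part of these measures in the differences was not tested. Stellate or fibroblast markers summed to 115.8 to 263 CPM under TCDD against 20.2 to 61.9 CPM in vehicle, and their part was not tested.

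At 120 h Cd36 was at 261, 527, 445 and 151 CPM in PkmΔDRE vehicle and at 866, 1130, 846 and 559 CPM in TCDD libraries. The groups did not overlap, and the log2 difference was 1.27 (SE 0.37, adjusted p = 0.267). Fabp1 was at 0.194, 0.176, 0.0401 and 0 CPM (10 counts) against 0.5, 3.35, 1.74 and 1.03 CPM (204 counts), also without overlap, with a difference of 3.91 (SE 0.83, adjusted p = 0.0784). None of the 10 genes was called by edgeR, against 0.633% of all genes tested; 2 had an unadjusted p under 0.05, and DESeq2 called these 2, Cd36 (adjusted p = 0.0409) and Fabp1 (adjusted p = 0.000227).

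Dgat2 groups were wide at 48 h. In WT libraries at 48 h it was at 175, 132.2, 483 and 82.4 CPM in vehicle and at 165, 248, 1060 and 171 CPM under TCDD (log2 difference 0.95, adjusted p = 1), and in PkmΔDRE libraries at 192, 49.6, 127.7 and 119.6 against 426, 199, 280 and 193 CPM (1.07, adjusted p = 0.539). The PkmΔDRE groups at 48 h did not overlap and the WT groups did, with TCDD replicate 3 at 1060 CPM. The WT vehicle value of 175 CPM belongs to replicate 1, whose Cyp1a1 went against its label. At 72 h PkmΔDRE libraries held 46.8, 162, 96.4 and 127.6 CPM in vehicle and 163, 188, 177 and 169 CPM in TCDD libraries, which did not overlap (0.65, adjusted p = 0.482). Without vehicle replicate 1 this difference was 0.41 (adjusted p = 0.144).

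**Figure D5:**
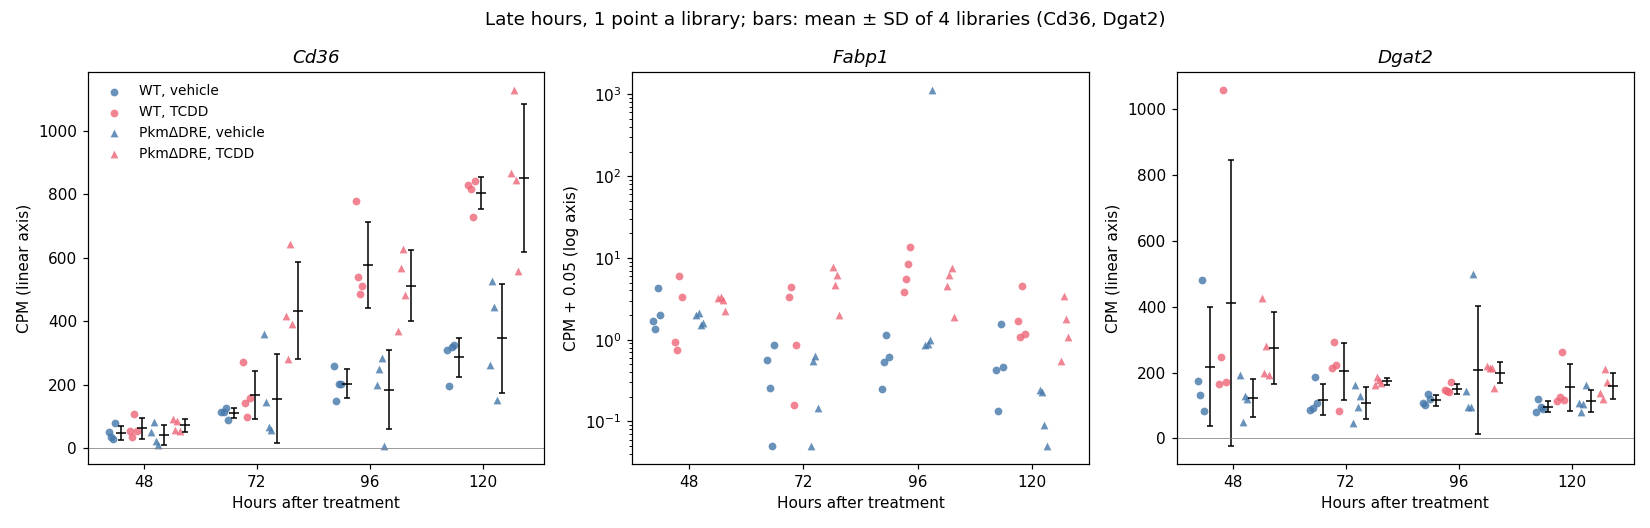
Cd36, Fabp1 and Dgat2 in each library at 48, 72, 96 and 120 h, blue for vehicle and red for TCDD, circles for WT and triangles for PkmΔDRE; Cd36 and Dgat2 as CPM on linear axes with bars for the mean ± SD of 4 libraries, and Fabp1 as CPM + 0.05 on a log axis. WT TCDD libraries lie above all WT vehicle libraries for Cd36 at 96 and 120 h, and the PkmΔDRE vehicle library at 1140 CPM of Fabp1 at 96 h is replicate 4, which lay nearest to 4 h.

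At 8 h, 7 of the 10 genes were called in WT libraries, 1 higher and 6 lower, in a comparison that called 37.4% of all genes tested (2950 higher and 1690 lower of 12392). Dgat2 was at 423, 399, 337 and 345 CPM in vehicle and at 219, 212, 144.3 and 237 CPM in TCDD libraries, without overlap, a log2 difference of −0.92 (SE 0.17, adjusted p = 0.00168). Plin5 was at 45.2, 52.7, 38.8 and 40.9 against 22.7, 28.8, 12.2 and 28.7 CPM (−0.97, SE 0.25, adjusted p = 0.00741), and Cidec at 106, 100.98, 129.5 and 111.9 against 56.3, 78.4, 42.5 and 86.3 CPM (−0.8, SE 0.2, adjusted p = 0.00733). Neither gene had overlapping groups. Plin2 was at 788, 804, 1130 and 1160 against 723, 507, 561 and 768 CPM (−0.63, adjusted p = 0.0127), Cideb differed by −0.76 (adjusted p = 0.0416) and Fabp1 by −0.6 (adjusted p = 0.0374), with Fabp1 at 855, 725, 648 and 488 against 658, 346, 433 and 401 CPM. The Plin2 groups did not overlap and the Cideb and Fabp1 groups did. With a library left out, the Plin2 call was kept in 4 of 8 fits, the Fabp1 call in 3 and the Cideb call in 2, and those of Dgat2, Plin5, Cidec and Cd36 in all 8. Cd36 was at 5.09, 5.52, 7.29 and 7.75 CPM in vehicle and at 8.98, 14, 27.6 and 11 CPM under TCDD, without overlap, a difference of 1.23 (SE 0.33, adjusted p = 0.0105). Dgat1 (−0.57, adjusted p = 0.0406) stayed under the fold threshold, and Pnpla2 (−0.65, adjusted p = 0.0521) and Plin4 (−0.66, adjusted p = 0.101) above the adjusted p.

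The WT TCDD libraries of 8 h stood apart in other measures. Read pairs in no annotated feature made up 8.36% to 22% of each library under TCDD and 4.89% to 5.99% in vehicle. Macrophage markers summed to 61.9 to 115.9 CPM against 150 to 189 CPM, stellate or fibroblast markers to 45.1 to 93.9 against 14 to 17.1 CPM and hepatocyte markers to 61000 to 68000 against 70500 to 83800 CPM. The exons of Cd36 have the lowest GC content of the 10 genes (38.4%, the others 45.8% to 58.9%), and with a trend in GC content removed Cd36 differed by 0.12 (adjusted p = 0.757) and only Fabp1 remained of the 7 calls. With a surrogate variable in a fit of all 72 WT libraries none of the 7 was called, and Cd36 had −0.29 (adjusted p = 0.882). In PkmΔDRE libraries at 8 h, where the share of pairs in no feature was 6.05% to 6.55% under TCDD and 4.2% to 6.27% in vehicle, none of the 10 genes was called by edgeR or DESeq2, against 0.106% of all genes, and Plin4 alone had an unadjusted p under 0.05 (−0.52, adjusted p = 1). Cd36 differed there by 0.38 and Dgat2 by −0.13.

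None of the 10 genes was called at the remaining hours by edgeR or by DESeq2. Of all genes tested in WT libraries, 0% were called in each of the fits of 2, 4 and 72 h, 0.0321% in that of 12 h, 0.373% in that of 24 h and 0.00763% in that of 48 h. In PkmΔDRE libraries the shares were 0% for both 2 and 4 h, 0.024% for 12 h, 0.016% for 24 h and 0.404% for 48 h. At an unadjusted p under 0.05, 166 genes and none of the 10 passed in WT at 2 h, 2126 genes and 2 of the 10 at 4 h, and 276 genes and 1 of the 10 at 72 h, and in PkmΔDRE libraries 1717 genes and 1 of the 10 at 2 h and 289 genes and 1 of the 10 at 4 h. DESeq2 called 0, 43 and 15 genes in WT at 2, 4 and 72 h, and 628 and 2 genes in PkmΔDRE libraries at 2 and 4 h. At 72 h in WT, Cd36 was at 113.4, 114.2, 126.7 and 87.8 CPM in vehicle and at 273, 141.4, 98 and 159 CPM under TCDD (0.61, adjusted p = 1), and Fabp1 was at 0.52, 0.203, 0 and 0.805 against 3.29, 4.41, 0.107 and 0.823 CPM (2.48, adjusted p = 1). Both pairs of groups overlapped. The last TCDD value of each gene belongs to replicate 4, whose Cyp1a1 went against its label. The WT fits of 2 and 48 h also include a library of this kind. The Cd36 difference of −2.2 in PkmΔDRE libraries at 4 h became −0.18 without vehicle replicate 4. At 2 h in these libraries Cd36 differed by 1.26 and was not called. In edgeR it was called with no filter on low counts (1.16, adjusted p = 0.0365) and without vehicle replicate 2 (1.85, adjusted p = 0.0315).

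Vehicle libraries of the labels were compared at each hour for a difference before treatment. Plin2 at 12 h was the 1 call in 89 tests of the 10 genes, against 3.68% of all genes tested at that hour and 0.407% over the 9 hours. It was at 1010, 1030, 936 and 1150 CPM in WT (1030 ± 90.2 CPM, SD, n = 4) and at 595, 554, 627 and 582 CPM in PkmΔDRE libraries (589 ± 30.3 CPM, SD, n = 4), without overlap. The log2 difference was −0.78 (SE 0.15, adjusted p = 0.0223), between −0.84 and −0.72 with a library left out, where the call was kept in 4 of 8 fits and lost without WT replicate 2 or PkmΔDRE replicate 1, 3 or 4. It was also lost in 1 fit of all vehicle libraries (−0.83, adjusted p = 0.254). Cideb (5.85, 9.02, 14.7 and 13.4 against 5.67, 5.42, 3.2 and 5.27 CPM) differed by −1.1 (adjusted p = 0.0853), and Cidec (65.8, 101.2, 51.4 and 140.8 against 45.8, 48.4, 37.3 and 42.6 CPM) by −1.01 (adjusted p = 0.0744). Both groups of Cideb and of Cidec lay apart, and DESeq2 called both (adjusted p = 0.0164 and 0.0146).

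At 8 h none of the 10 genes was called between labels, against 0.0576% of all genes, with 3 at an unadjusted p under 0.05 (Plin4 −0.79, adjusted p = 0.346, Plin5 −0.69 and Cidec −0.62). In each of the fits of 2, 4, 24, 48, 72, 96 and 120 h, 0% of all genes were called by edgeR, with 446 to 897 genes at an unadjusted p under 0.05 and 4 to 35 genes called by DESeq2, none of them among the 10. Fabp1 was not tested at 120 h because its counts were too low. At 96 h its difference of 9.08 (adjusted p = 0.792) rested on replicate 4 and was 0.53 without it (adjusted p = 0.852).

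A difference in the TCDD response between labels was assessed by the interaction term over the 16 libraries that share an hour. None of the 10 genes was called by edgeR or DESeq2 in 90 tests. Of all genes, 0.00715% were called in the fit of 48 h, 0.00695% in that of 72 h and 0% in each of the other 7. At an unadjusted p under 0.05, 0.83% to 15.9% of all genes passed, with 1 of the 10 at 8, 12, 24, 48 and 96 h and none at the other hours, and DESeq2 called between 0% and 0.839%. For Cd36 the term (PkmΔDRE minus WT) was, as a log2 value, 0.8 in the fit of 72 h, −0.14 in that of 96 h and −0.21 in that of 120 h. Without the PkmΔDRE vehicle libraries nearest to another hour it was 1.63 (SE 0.51, adjusted p = 0.204) in the fit of 72 h and −0.59 (SE 0.29, adjusted p = 0.288) in that of 96 h. For Fabp1 at 96 h it was −9.77 (adjusted p = 0.253), and −1.33 (adjusted p = 0.319) without replicate 4 of PkmΔDRE vehicle. Dgat2 at 8 h had 0.67 (adjusted p = 0.294). The calls in WT and not in PkmΔDRE libraries at 8 h are therefore not shown to differ between the labels.

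The other genes of lipid handling were counted by list. At 96 h in WT libraries, of 18 genes of fatty acid and lipoprotein uptake and activation 4 were called higher and 2 lower under TCDD, of 10 droplet genes 3 higher, of 12 triglyceride synthesis genes 1 higher and 1 lower, of 6 lipolysis genes 2 higher, and of 8 transcription factors and cofactors 1 lower, beside the 15.1% called of all genes. Lipc, hepatic lipase, differed by 3.62 on the log2 scale (adjusted p = 5.64e-06), Vldlr, the receptor of very low density lipoprotein, by 1.49 and Fabp2 by 1.33, while Fabp5 had −1.17 and Cav1, the caveolae protein, −0.72. Among droplet genes Hsd17b13, a droplet-bound dehydrogenase of hepatocytes, was at a mean of 330 CPM under TCDD and 133.8 CPM in vehicle (1.36), Hilpda at 0.99 and G0s2, an inhibitor of PNPLA2, at 0.77. Lpin2, a phosphatidate phosphatase, was at 735 against 379 CPM (1.01), and Mgll, monoglyceride lipase, at 41.7 against 12.4 CPM (1.81), with Ces1d at 1.73, Agpat1 at −0.76 and Pparg at −0.71. At 120 h Vldlr (1.31), Lpin2 (1.02) and Ces1d (3.16) were called higher and Fabp5 (−0.84) lower in WT, 1 of 17 uptake genes in each direction, 1 of 12 synthesis and 1 of 7 lipolysis genes, and 0 of 10 droplet genes. Of all genes tested, 1.46% were called in that comparison.

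Several of these genes were also called in PkmΔDRE libraries, and those not called are not named here. Of all genes tested, 1.13% were called there at 72 h, 0.633% at 120 h and 0.404% at 48 h, and 0.373% in WT at 24 h. At 72 h Lipc was at 32.1 CPM under TCDD and 4.2 CPM in vehicle (2.9), Hsd17b13 at 310 against 105.6 CPM (1.52), Lpin2 at 828 against 349 CPM (1.21) and Ces1d differed by 4.04. Without vehicle replicate 1 these 4 differences were 2.53, 1.34, 1.28 and 4.04, all called. At 120 h Lipc was at 9.88 against 0.711 CPM (3.76), Hsd17b13 at 316 against 93.3 CPM (1.73) and Fabp5 differed by −1.26. Vldlr was called earlier, at 24 h in WT (51.2 against 10.9 CPM, 2.3) and at 48 h in PkmΔDRE libraries (19 against 2.6 CPM, 2.77).

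At 8 h in WT the lists had 3 higher and 5 lower of 18 uptake genes, 1 and 4 of 12 droplet genes, 1 and 2 of 11 synthesis genes, 0 of 6 lipolysis genes and 3 lower of 8 transcription factors, beside 37.4% of all genes. Vldlr (1.77), Acsl3 (1.28), Acsl4 (0.94), Rab18 (1.16) and Lpin2 (0.9) were higher. Among those lower were Slc27a1 (−0.93), Fabp5 (−0.85), Scarb1 (−0.71), Tmem159 (−1.06), Plin3 (−0.94), Aup1 (−0.73), Agpat2 (−0.77), Agpat3 (−0.7) and the nuclear receptor genes Nr1i2 (−0.99), Nr1h3 (−0.89) and Rxra (−0.7). These calls come from the libraries whose other measures stood apart.

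With time in culture, between 2 and 120 h in WT vehicle libraries, 4 of 18 uptake genes were called higher and 11 lower, 1 and 9 of 13 droplet genes, 2 and 8 of 12 synthesis genes, 0 and 3 of 7 lipolysis genes, and 3 and 5 of 8 transcription factors, beside 57.9% of all genes. In PkmΔDRE libraries the counts were 4 and 10, 1 and 8, 2 and 6, 0 and 3, and 2 and 5. Slc27a5, a bile acid and fatty acid CoA ligase of hepatocytes, was at a mean of 1760 CPM at 2 h and 6.48 CPM at 120 h in WT (−8.26), Lipc differed by −7.04 and Fabp2 by −6.03, and Cav1 (4.16), Acsl4 (2.62) and Lpl (2.12) were higher. The droplet genes Fitm1 (−6.88), Plin1 (−5.39) and Cidea (−3.78) were lower and Tmem159 (2.45) higher. Agpat1 (2.38) and Gpam (0.78) were higher and Gpat3 (−2.03), Agpat2 (−1.87) and Lpin1 (−1.61) lower, while the lipases Ces1d (−10.48), Ces1g (−5.21) and Mgll (−4.16) were lower. Of the transcription factors, Ppargc1a (1.96), Ahr (1.12) and Pparg (1) were higher and Ppara (−1.9), Rxra (−1.59) and Nr1i2 (−1.45) lower.

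The likeness of patterns was described as Pearson's r of mean log2 CPM over the 36 groups, among 11517 genes with a mean of at least 1 CPM. The groups share the time course, so high values are common, and leaving out replicate 4 of PkmΔDRE vehicle at 4 and 96 h moved them by no more than 0.02. Nearest to Fabp1 were Aspdh (0.991), Cyp2d10 (0.988) and Serpina6 (0.987), and nearest to Cd36 were Zfp827 (0.98), Prox1 (0.976) and Mpp2 (0.975). Cidec lay near Slc22a7 (0.986), Hpd (0.985) and Serpina6 (0.984), Plin5 near F2 (0.975), Sec14l4 (0.975) and Gulo (0.973), and Dgat2 near Pcyt2 (0.942), Adra1b (0.941) and Reep6 (0.939). Cideb lay near Inhbc (0.944), Cox7b (0.944) and Sdha (0.943), and Pnpla2 near Map1lc3b (0.94), Ubald2 (0.938) and Tmem50a (0.931). The remaining 3 genes had less close neighbours. These were Mrps14 (0.916), Minos1 (0.881) and Ube2l6 (0.87) for Plin2, Tmem223 (0.81), H13 (0.791) and Laptm4a (0.777) for Dgat1, and Abcd4 (0.796), Dolk (0.766) and Wdr89 (0.763) for Plin4. Within the 10 genes, Fabp1 and Cidec had 0.98, Fabp1 and Plin5 0.96, Plin5 and Cidec 0.96, Cd36 and Fabp1 −0.84, and Cd36 and Cidec −0.89.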

How the data were processed

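RNA-seq was measured in 144 libraries of primary hepatocytes, in 36 groups of 4. The authors trimmed paired-end reads with Trimmomatic 0.39, checked them with FastQC 0.11.3, aligned them to GRCm39 (Ensembl release 104) with STAR 2.7 and counted pairs per gene, and deposited 1 file of raw counts per library; the unstranded count column was used. Those files also hold 4 lines of pairs that fell on no single gene, 16.8% to 48.0% of each library, which were kept out of totals and tests. Other tools of the authors, such as their DESeq2 step, left no values used here. The methods and labels of the study differ on the plates used (12-well and 6-well).

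The members and the gene lists were chosen with earlier results of these data known. Groups came from the labels. Counts were scaled by TMM and tested with edgeR 4.0.16 (robust quasi-likelihood, filterByExpr with a minimum count of 10 and a minimum total of 15, limma 3.58.1, R 4.3.3), with p-values adjusted by Benjamini-Hochberg over all genes tested and a fold change of at least 1.5. Vehicle libraries are shared between the TCDD, culture, label and interaction comparisons. All 10 genes were looked up in every comparison but are not all named in each. From the lists at most 3 genes in each direction are named, those called with the largest changes. Of the lists, comparisons with few calls were left out. Likeness used Pearson's r over group means. Alternatives were DESeq2 1.42.0, other scaling, filter and fold settings, fits of more or fewer libraries, a surrogate variable (sva 3.50.0), removal of a GC trend, the share of pairs outside genes in the fit, and each library left out. The tests were tested on simulated data with known changes. No 2 libraries of a group agreed within sampling noise: over 216 pairs the chi-square per degree of freedom was 4.21 to 819.79. Exon lengths, GC content and the overlap of Cideb with Nop9 come from a GRCm38 annotation. Proteins, and promoters of Dgat1 and Dgat2, were not used here.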

Additional observations from a re-analysis of the deposited data

Results flagged for a closer look

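Among 360 groups of 4 libraries (10 genes in 36 groups), 27 held a library far from the other 3 by Dixon's test, from 21 libraries. Chance alone gives about 1 in 20 such groups. Replicate 4 of PkmΔDRE vehicle at 96 h stood apart for 5 of the 10 genes, with 1140 CPM of Fabp1, 128.03 CPM of Cidec, 499 CPM of Dgat2, 28.4 CPM of Plin5 and 19.6 CPM of Cideb, and replicate 4 of PkmΔDRE vehicle at 4 h for Cd36 at 114.7 CPM. Replicate 3 of WT TCDD at 120 h stood apart for 3 genes, with 263 CPM of Dgat2, 1940 CPM of Plin2 and 165 CPM of Pnpla2.

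The uptake genes gave 5 further values. Cd36 was at 195 CPM in replicate 2 of WT vehicle at 120 h, 37.6 CPM in replicate 3 of WT TCDD at 4 h, 22.1 CPM in replicate 2 of PkmΔDRE vehicle at 8 h and 18.1 CPM in replicate 2 of PkmΔDRE TCDD at 8 h. Fabp1 was at 41.2 CPM in replicate 3 of PkmΔDRE TCDD at 24 h.

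Of the droplet coat genes, Plin4 was at 32.5 CPM in replicate 2 of PkmΔDRE vehicle at 72 h, 25.8 CPM in replicate 1 of PkmΔDRE vehicle at 96 h and 9.61 CPM in replicate 1 of PkmΔDRE TCDD at 24 h, and Plin2 at 1590 CPM in replicate 1 of PkmΔDRE TCDD at 96 h. Cideb was at 7.8 CPM in replicate 2 of WT vehicle at 8 h, 3.2 CPM in replicate 3 of PkmΔDRE vehicle at 12 h and 5.42 CPM in replicate 4 of PkmΔDRE vehicle at 24 h, and Cidec at 3.58 CPM in replicate 2 of WT vehicle at 96 h.

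Of the lipase and synthesis genes, Pnpla2 was at 165 CPM in replicate 2 of WT TCDD at 48 h and 141.9 CPM in replicate 1 of PkmΔDRE TCDD at 8 h. Dgat2 was at 1060 CPM in replicate 3 of WT TCDD at 48 h, 426 CPM in replicate 4 of WT vehicle at 24 h and 154 CPM in replicate 4 of PkmΔDRE TCDD at 96 h.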

How the results depend on the processing

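Over time in culture the 10 genes had 22 calls in WT libraries and 18 in PkmΔDRE libraries, and these moved by less than 1.5 times in every setting tried (18 to 24 and 15 to 20; 20 to 23 and 13 to 20 with a library left out). Leaving out replicate 4 of PkmΔDRE vehicle at both 4 and 96 h, an alternative chosen after the data were seen, gave 20 calls. Under TCDD in WT libraries the 10 calls became 1 with a surrogate variable in a fit of all 72 libraries, 7 to 13 in the other settings, and 7 to 11 with a library left out. Under TCDD in PkmΔDRE libraries the single call, Fabp1 at 72 h, was lost in the fit of 72 libraries and with the surrogate variable (both adjusted p = 0.17). Those fits made 2 and 3 other calls, among them Fabp1 (−5.93 and −5.89) and Cidec (−2.34 and −2.24) at 96 h, with replicate 4 of the vehicle included. With the call kept, there were 2 with the GC trend removed and 3 with DESeq2 and with no filter on low counts, and with a library left out there were 0 to 3. Between labels in vehicle the single call, Plin2 at 12 h, was lost in 1 fit of all vehicle libraries (adjusted p = 0.254), which made 2 others at 96 h, Fabp1 (8.97) and Cidec (2.27), with that same library. There were 3 calls with DESeq2, with no filter and with the share of pairs outside genes in the fit, and 0 to 4 with a library left out. The interaction had 0 calls, 1 in 1 fit of all libraries (Fabp1 at 96 h, −9.58, with replicate 4 of PkmΔDRE vehicle included), and 0 with any library left out. Of single values, 2 turned past a call: Cd36 in WT at 8 h was −0.29 (adjusted p = 0.882) with the surrogate variable, and Fabp1 in PkmΔDRE at 96 h ran from −6.43 to 2.47 with a library left out, the latter without vehicle replicate 4 (adjusted p = 0.0176). Where no value shows it, the cause was not tested. Genes called of all tested ranged over settings from 205 to 5639 in WT at 8 h, from 97 to 4525 at 96 h and from 0.762% to 4.18% of genes at 120 h. Fabp1 after 48 h rests on few counts (10 in the PkmΔDRE vehicle group of 120 h), which limits its precision. No paired analysis was possible because the labels give no replicate number, animal or isolation that ties libraries of different groups.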
